A study of Mus musculus with 4 samples.

Results

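The aminoacyl-tRNA synthetases of the cytosol and of mitochondria were followed in mouse embryonic fibroblasts with and without Pf1, the PHD finger protein encoded by Phf12 that works with Sin3 corepressor complexes. Members were taken by gene symbol (1 amino acid letter followed by ars, ars1 or ars2, or the symbols Farsa, Farsb and Eprs), which gave 35 genes among 18193, 19 of them cytosolic and 16 mitochondrial, read by 72 of 45101 probe sets. Symbols ending in 2 were taken as mitochondrial. No value filter was applied, so all 35 genes were tested. The rule found no aspartyl-tRNA synthetase, and that enzyme was not analysed here. A probe set shared by Aars and Exosc6 was left out.

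Primary fibroblasts came from embryo torsos of embryonic day 13.5 or 14.5, were kept at 6% oxygen, and gave RNA at passage 2 to 3. Lines 2 and 4 were Pf1 -/- and lines 5 and 6 were wild type, all of the 7706 series, with 1 Affymetrix array per line and n = 2 lines per genotype. The labels used here name no strain, do not say which line had which embryonic day or passage, and do not say whether each line was a separate embryo, so the p-values cover only the variation among these 4 lines, which may be technical. The study asks about the role of Pf1 in nucleolar integrity.

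Each synthetase joins 1 amino acid to its tRNAs, the step that fixes the genetic code in protein synthesis. Cytosol and mitochondria mostly use separate enzymes, both encoded in the nucleus, and Gars and Kars each make both forms from a single gene. The enzymes fall into class I and class II by the fold of their catalytic domain. Several cytosolic synthetases assemble with the scaffold proteins Aimp1, Aimp2 and Eef1e1 into the multisynthetase complex. Many genes of cytosolic synthetases are known targets of Atf4, a transcription factor switched on when amino acids are short, which binds the C/EBP-ATF response element (CARE).

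The targeted gene was read by 2 probe sets. Of these, 1434922_at stood at -0.37 in line 2 and -0.41 in line 4 of the knockout, and 0.56 in line 5 and 0.37 in line 6 of the wild type and fell (-0.86 ± 0.109 SE, limma adjusted p = 0.0213), whereas 1453579_at differed by 0.012. Averaged over both, as for every other gene here, Phf12 differed by -0.42 ± 0.0934 SE and was not called (limma adjusted p = 0.0504). Over all genes, limma called 12.2%, with 5.21% higher and 6.95% lower in the knockout. Of markers of the cells a torso culture could hold, 5 of 10 fibroblast markers fell, 7 of 8 smooth muscle markers rose, and 3 of 11 epithelial markers rose with 1 lower (50.0%, 87.5% and 36.4% called). Endothelial markers gave 1 higher and 1 lower among 8 (25%), skeletal muscle 1 higher among 8 (12.5%), and limma called 0 of 10 macrophage and 0 of 3 erythroid markers, with 0 of either at an unadjusted p under 0.05. Centred values hold no level, so the presence of these cells could not be read from them, and their part in any synthetase differences was not tested. Fewer cells of a type and less RNA per cell cannot be told apart in these bulk samples.

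The start regions of the genes were searched for the core of the CARE and for an E-box. RefSeq (GRCm38.p6) windows of 300 bases, from 250 before to 50 after a start, were held for 26 of the 35 genes, 27 windows in all, and Cars, Hars, Hars2, Lars, Nars, Pars2, Rars, Vars and Wars were not matched. The CARE core TGATGNAA, searched on both strands, lay in 5 of 12 cytosolic windows (41.7%) and 0 of 15 mitochondrial ones, against 3.97% of 32851 RefSeq windows. The stretches of 30 bases that hold 4 of these matches, in Yars, Gars, Iars and Tars, follow 5′ to 3′ along each gene, with the match in capitals; TTGCATCA and TTTCATCA are the same core read from the other strand.
Yars chr4:129189895-129189924 (plus strand): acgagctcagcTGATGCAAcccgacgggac
Gars chr6:55037960-55037989 (plus strand): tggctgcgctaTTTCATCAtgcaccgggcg
Iars chr13:49682126-49682155 (plus strand): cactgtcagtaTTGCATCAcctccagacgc
Tars chr15:11399655-11399684 (minus strand): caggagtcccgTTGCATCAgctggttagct
The matches began at -30 (Gars), -15 (Tars), 3 (Yars) and 7 (Iars) bases from the start. The E-box CACGTG, the site read by Myc and related factors, at places that did not overlap the CARE matches, was in 4 of 12 cytosolic windows, among them those of Farsb, Iars and Tars, and 1 of 15 mitochondrial ones (Ears2), against 7.15% of RefSeq windows. The 250 bases before the Farsb start are shown because this gene differed most between the genotypes; its E-box, in capitals, began at -39.
Farsb chr1:78488898-78489147 (minus strand): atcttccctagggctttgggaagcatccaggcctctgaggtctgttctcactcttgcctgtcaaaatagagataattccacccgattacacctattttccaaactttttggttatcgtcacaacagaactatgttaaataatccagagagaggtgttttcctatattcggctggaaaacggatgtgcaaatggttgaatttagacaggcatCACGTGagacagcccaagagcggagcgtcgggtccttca
Knockout minus wild-type log2 differences of the other genes named with an E-box were -0.049 (Iars), 0.19 (Tars) and -0.21 (Ears2), without a call. The median GC content was 57.7% in the windows of the members and 52.7% in all RefSeq windows, and the shares were not matched for it. These matches describe letters in the windows and are not evidence of binding, and their relation to expression was not tested.

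Values below are deposited log2 values, centred on each probe set's median over the 4 arrays and averaged over the probe sets of a gene. They show differences between lines and carry no level of a gene. Differences are knockout minus wild type on the log2 scale with the standard error (SE) of the limma fit over all genes, and calls are at an adjusted p under 0.05.

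Among the members, arginyl-tRNA synthetase and the beta subunit of cytosolic phenylalanyl-tRNA synthetase rose in the knockout, and the mitochondrial enzymes for serine, phenylalanine and tryptophan fell. These 5 of 35 genes make 14.3%, near the 12.2% of all genes that limma called, so their number is not a result about the synthetases. Cytosolic members gave 2 higher and 0 lower calls (5.21% and 6.95% of all genes), with 4 higher and 3 lower at an unadjusted limma p under 0.05 (14.3% and 15.2% of all genes). Mitochondrial members gave 0 higher and 3 lower, with 3 higher and 6 lower unadjusted. At least 1.5-fold apart were Rars, Farsb and Tars2, all higher, 3 of 35 members beside 9.93% of all genes. Of all differences, 7 cytosolic and 5 mitochondrial ones were above 0, beside 49.2% of all genes. The genotypes did not overlap for 26 of the 35 members, beside 58.2% of all genes. The median difference was -0.054 over the cytosolic and -0.17 over the mitochondrial genes, beside -0.0027 over all genes.

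Farsb encodes the beta subunit that makes up the cytosolic phenylalanine enzyme together with the alpha subunit Farsa. Farsb stood at 0.37 in line 2 and 0.70 in line 4 of the knockout, and -0.68 in line 5 and -0.37 in line 6 of the wild type. Both knockout lines lay above both wild-type lines, and the gene was 2.08-fold higher in the knockout (1.06 ± 0.163 SE, limma adjusted p = 0.0255). All 4 of its probe sets were higher, by 0.77 to 1.70, and 3 of them were called in the fit over probe sets. The largest of these differences came from probe set 1430986_at, at 0.60 in line 2 and 1.47 in line 4 of the knockout, and -0.74 in line 5 and -0.60 in line 6 of the wild type. The other 3 differed by 0.77 to 0.89. With the median of the 4 probe sets on each array in place of their mean, the gene's difference was 0.89, and by probe sets ending in _at alone, which leaves this one only, it was 1.70.

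The alpha subunit moved less. Farsa stood at 0.045 in line 2 and 0.25 in line 4 of the knockout, and -0.23 in line 5 and -0.045 in line 6 of the wild type, a difference of 0.28 ± 0.116 SE that did not pass (limma adjusted p = 0.190). The genotypes did not overlap, but 1 of its 4 probe sets was at -0.041 while the others reached 0.44. Taken line by line, Farsb minus Farsa was 0.32 in line 2 and 0.45 in line 4 of the knockout, and -0.46 in line 5 and -0.32 in line 6 of the wild type, and the knockout minus wild-type difference of this gap was 0.78. An exact two-sided permutation test of the 4 lines gives p = 0.333 here, the smallest p that 2 against 2 allows.

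Rars, the arginine enzyme and a member of the multisynthetase complex, was read by 1 probe set. It stood at 0.35 in line 2 and 0.50 in line 4 of the knockout, and -0.56 in line 5 and -0.35 in line 6 of the wild type. The knockout lines were both above the wild-type lines, and the transcript was 1.84-fold higher (0.88 ± 0.114 SE, limma adjusted p = 0.0192). Without any single line of the 4 neither gene was called: the difference of Rars ran from 0.77 to 0.99 (adjusted p 0.0527 to 0.0971) and that of Farsb from 0.89 to 1.22 (adjusted p 0.0595 to 0.114).

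**Figure D1:**
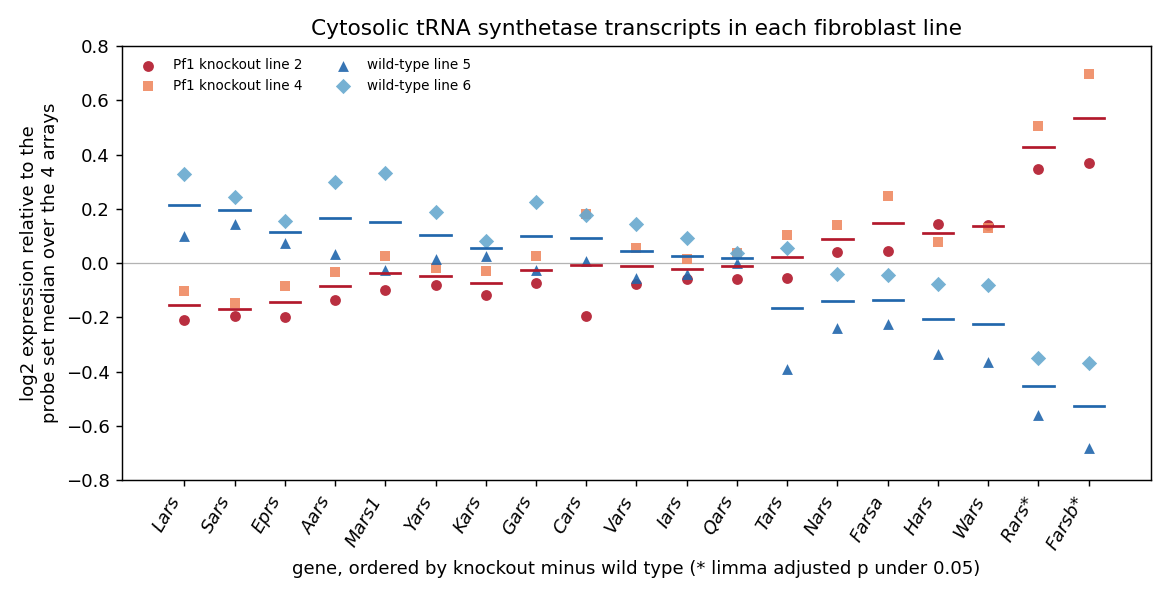
Deposited log2 expression of the 19 cytosolic synthetase genes (vertical axis, relative to the probe set median over the 4 arrays) in each of the 4 lines, ordered by knockout minus wild type; points are lines and horizontal bars are genotype means (n = 2). Rars and Farsb, at the right, are the members called, and wild-type line 6 (light diamonds) lies above wild-type line 5 (dark triangles) for every gene shown.

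Apart from Rars, the measured members of the multisynthetase complex had differences below 0 that were not called. Of 8 complex enzymes, 7 were measured, and 6 of them had a difference below 0, beside 9237 of 18193 genes overall below 0. The genotypes overlapped for 3 of the 7, beside 7612 of 18193 genes. The median of the 7 was -0.13, against 0.068 for the 12 other cytosolic genes, of which 6 were below 0. Lars, the leucine enzyme, which also senses leucine for mTORC1, stood at -0.21 in line 2 and -0.10 in line 4 of the knockout, and 0.10 in line 5 and 0.33 in line 6 of the wild type. Its lines did not overlap, and the difference of -0.37 ± 0.111 SE did not pass (limma adjusted p = 0.0982). Eprs, which carries the glutamate and the proline enzyme in 1 chain, stood at -0.20 in line 2 and -0.084 in line 4 of the knockout, and 0.074 in line 5 and 0.15 in line 6 of the wild type (-0.26 ± 0.0899 SE, limma adjusted p = 0.137). Of its 4 probe sets, 1430370_at was at 0.0081 and the other 3 lay between -0.36 and -0.33.

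Kars, the lysine enzyme, differed by -0.13 ± 0.0851 SE and Mars1, the methionine enzyme, by -0.19 ± 0.143 SE. The isoleucine enzyme Iars (-0.049) and the glutamine enzyme Qars (-0.031) were close to 0 and changed sign with the choice of probe sets. None of these complex members passed the test, with adjusted p from 0.0982 (Lars) to 0.867 (Qars) for the 6 apart from Rars.

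Outside the complex, Sars, the serine enzyme, came closest to a call on the lower side, at -0.19 in line 2 and -0.15 in line 4 of the knockout, and 0.15 in line 5 and 0.24 in line 6 of the wild type. Both probe sets and both knockout lines were lower (-0.36 ± 0.0854 SE, limma adjusted p = 0.0573). Aars, the alanine enzyme, stood at -0.14 in line 2 and -0.034 in line 4 of the knockout, and 0.034 in line 5 and 0.30 in line 6 of the wild type, with the knockout lines below the wild-type lines and wild-type line 6 well above the rest. Its difference was -0.25 ± 0.119 SE (limma adjusted p = 0.244). The 4 genes whose CARE stretches are printed were Yars for tyrosine (-0.15 ± 0.0977 SE), Gars for glycine (-0.12 ± 0.115 SE), Iars (-0.049 ± 0.0920 SE) and Tars for threonine (0.19 ± 0.168 SE). Limma called 0 of these 4, beside 12.2% of all genes, with 0 at an unadjusted p under 0.05, beside 29.5%. With 4 genes these counts are too small to tell from the shares of all genes. The fifth cytosolic gene with a match is not in this count. Vars, the valine enzyme that associates with elongation factor 1, differed by -0.054 ± 0.109 SE and Cars, the cysteine enzyme, by -0.10 ± 0.151 SE; the 2 Cars probe sets went apart, at -0.40 and 0.20.

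On the higher side but short of a call were Wars, Hars and Nars. Wars, the tryptophan enzyme, whose transcript is known to be induced by interferon, stood at 0.14 in line 2 and 0.13 in line 4 of the knockout, and -0.36 in line 5 and -0.082 in line 6 of the wild type. The knockout lines were higher, by 0.36 ± 0.119 SE (limma adjusted p = 0.122), and all 4 probe sets were above 0, from 0.19 to 0.57. Without wild-type line 5, the lowest of the lines, the difference was 0.22. Hars, the histidine enzyme, differed by 0.32 ± 0.114 SE (limma adjusted p = 0.144), and Nars, the asparagine enzyme, by 0.23 ± 0.105 SE (limma adjusted p = 0.229), both with lines that did not overlap. In all, 6 cytosolic genes were higher and 6 lower without overlap of the genotypes (28.7% and 29.5% of all genes), and 7 overlapped. By catalytic class, the median was -0.054 for the 9 class I genes and 0.19 for the 9 class II genes. Each class had 1 called member (11.1%, beside 12.2% of all genes), and Eprs holds both classes.

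Of the mitochondrial enzymes, Sars2, Fars2 and Wars2 fell. Sars2, the mitochondrial serine enzyme, was read by 1 probe set and stood at -0.28 in line 2 and -0.24 in line 4 of the knockout, and 0.24 in line 5 and 0.28 in line 6 of the wild type. The lines of each genotype lay close together, and the transcript was 1.44-fold lower without Pf1 (-0.52 ± 0.0799 SE, limma adjusted p = 0.0252). Fars2, the single-chain mitochondrial phenylalanine enzyme, stood at -0.24 in line 2 and -0.28 in line 4 of the knockout, and 0.20 in line 5 and 0.19 in line 6 of the wild type. Its 1.37-fold decrease (-0.46 ± 0.0790 SE, limma adjusted p = 0.0316) was shared by both probe sets, at -0.50 and -0.42. Of these, 1431354_a_at was called (limma adjusted p = 0.0443 over probe sets) and 1439406_x_at was not (0.0783). They ordered the knockout lines oppositely, at -0.33 in line 2 and -0.21 in line 4, and at -0.16 and -0.34. Neither has the plain _at ending, so Fars2 was absent from the setting with those probe sets only. Wars2, the mitochondrial tryptophan enzyme, stood at -0.32 in line 2 and -0.23 in line 4 of the knockout, and 0.13 in line 5 and 0.18 in line 6 of the wild type and was 1.35-fold lower (-0.43 ± 0.0843 SE, limma adjusted p = 0.0379), again without overlap. Neither Wars2 probe set was called alone. Probe set 1429279_at differed by -0.45 ± 0.147 SE (limma adjusted p = 0.138 over probe sets), with knockout values of -0.50 in line 2 and -0.13 in line 4. Probe set 1435273_at differed by -0.42 ± 0.115 SE (limma adjusted p = 0.0916), with -0.13 and -0.34. The call thus rests on the mean of probe sets that ordered the knockout lines oppositely.

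Leaving out any 1 of the 4 lines ended these calls, with differences of -0.54 to -0.51 for Sars2 (adjusted p 0.0688 to 0.163), -0.47 to -0.44 for Fars2 (adjusted p 0.0770 to 0.177) and -0.48 to -0.39 for Wars2 (adjusted p 0.0977 to 0.230). Wars2 was also not called when only its probe set with a cDNA accession was used (-0.45, limma adjusted p = 0.117).

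Pars2, the mitochondrial proline enzyme, was as far down on average but less even, at -0.43 in line 2 and -0.14 in line 4 of the knockout, and 0.16 in line 5 and 0.14 in line 6 of the wild type (-0.44 ± 0.120 SE, limma adjusted p = 0.0794). Knockout line 2 was the lowest value of any mitochondrial gene except that of Tars2 and Yars2 in wild-type line 5. Hars2 (-0.29 ± 0.107 SE), Nars2 (-0.26 ± 0.0862 SE), Vars2 (-0.22 ± 0.109 SE), Ears2 (-0.21 ± 0.0811 SE), Lars2 (-0.13 ± 0.0796 SE) and Cars2 (-0.12 ± 0.0887 SE), the enzymes for histidine, asparagine, valine, glutamate, leucine and cysteine, were also lower without overlap and did not pass. For Hars2 the probe sets parted: 1419158_a_at fell (-0.56 ± 0.113 SE, limma adjusted p = 0.0483 over probe sets), and 1449371_at was at -0.025. For Lars2 and Cars2 the lack of overlap held for the gene means only. The genotypes overlapped in every Lars2 probe set, with differences of -0.35, -0.072 and 0.021. Of the Cars2 probe sets, 1431778_at was at -0.42, 1454186_a_at at -0.030 and 1428524_at at 0.094, the last higher in both knockout lines. Aars2 (-0.064), Rars2 (0.029) and Iars2 (0.070), for alanine, arginine and isoleucine, lay near 0.

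The opposite side held the mitochondrial threonine, methionine and tyrosine enzymes. Tars2 stood at 0.41 in line 2 and 0.17 in line 4 of the knockout, and -0.56 in line 5 and -0.17 in line 6 of the wild type, which made it the largest mitochondrial difference, 1.58-fold (0.66 ± 0.165 SE), though not called (limma adjusted p = 0.0653; 0.0461 after quantile normalisation). Mars2 stood at 0.22 in line 2 and 0.17 in line 4 of the knockout, and -0.39 in line 5 and -0.12 in line 6 of the wild type (0.45 ± 0.118 SE, limma adjusted p = 0.0734), and Yars2 at 0.21 in line 2 and 0.10 in line 4 of the knockout, and -0.44 in line 5 and -0.10 in line 6 of the wild type (0.43 ± 0.136 SE, limma adjusted p = 0.109). For all 3 genes wild-type line 5 was the lowest line by a wide margin. Without it the differences were 0.46, 0.31 and 0.26. The Mars2 probe sets were far apart, at 0.74 (1436777_at) and 0.16 (1447378_at), neither called.

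**Figure D2:**
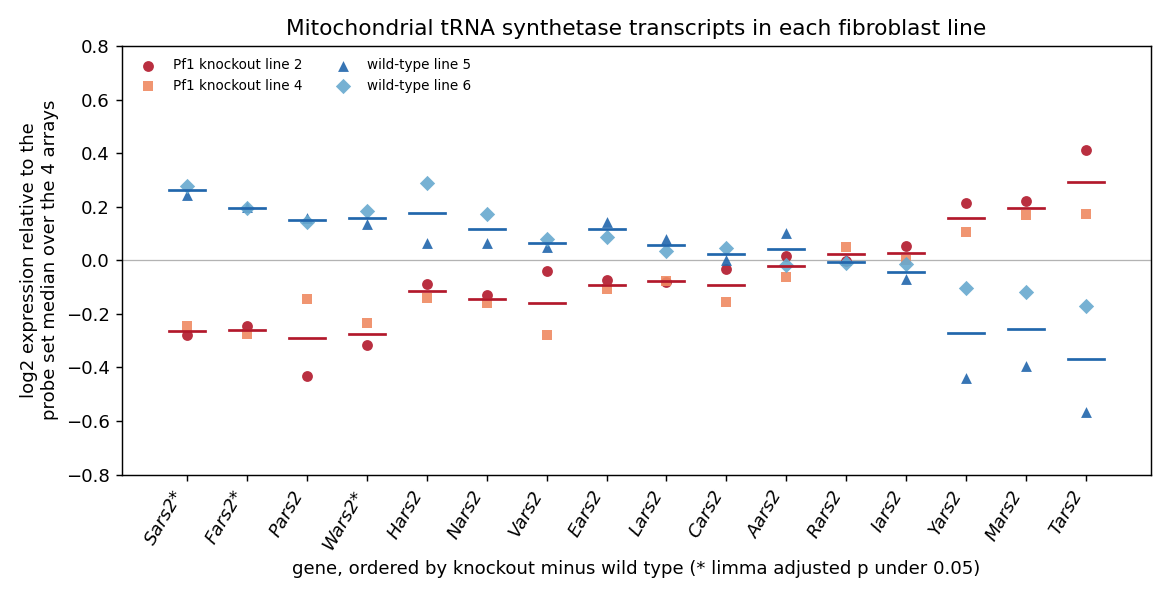
The same plot for the 16 mitochondrial synthetase genes, with log2 expression relative to the probe set median on the vertical axis, points for lines and bars for genotype means (n = 2). Sars2, Fars2 and Wars2 are the called genes, and Yars2, Mars2 and Tars2 at the right are higher in both knockout lines, with wild-type line 5 lowest.

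Across the mitochondrial genes, each taken as the mean of its probe sets, 10 were lower and 4 higher without overlap (29.5% and 28.7% of all genes), and 2 overlapped. The median of the 7 class II genes was -0.29, with 2 called (28.6%), and that of the 9 class I genes -0.12, with 1 called (11.1%). Limma called 12.2% of all genes, and a difference between the classes was not tested. Relative to the wild-type mean, the mitochondrial median was -0.12 in knockout line 2 and -0.20 in line 4, and the cytosolic one -0.12 and 0.012. The cytosolic median of -0.054 turned with the lines used: it became 0.012 when knockout line 2 was dropped and 0.000586 when wild-type line 6 was, but -0.12 on dropping knockout line 4 and -0.15 on dropping wild-type line 5.

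Enzymes that serve the same amino acid in the 2 compartments were then set side by side, in 17 pairs, with Eprs and Fars2 each in 2 of them. The differences had opposite signs in 8 pairs and the same sign in 9. Phenylalanine stood furthest apart, with Farsb at 1.06 and Fars2 at -0.46, both called. Tryptophan had Wars at 0.36 and Wars2 at -0.43, and histidine had Hars at 0.32 and Hars2 at -0.29. Hars and Hars2 are next to each other in the RefSeq order of protein-coding genes on chromosome 18, the only such neighbours among the members. Methionine and tyrosine ran the other way, with Mars1 at -0.19 and Mars2 at 0.45, and Yars at -0.15 and Yars2 at 0.43. For serine both enzymes were below 0, Sars at -0.36 ± 0.0854 SE and Sars2 at -0.52 ± 0.0799 SE, and for arginine the rise of Rars stood beside 0.029 ± 0.0800 SE for Rars2. Exact two-sided permutation tests of the gap between the enzymes of each pair gave p = 0.333 to 1.00 (0.436 to 1.00 after Benjamini-Hochberg adjustment over the 17), and 0.333 is the smallest p that 2 lines against 2 allow.

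**Figure D3:**
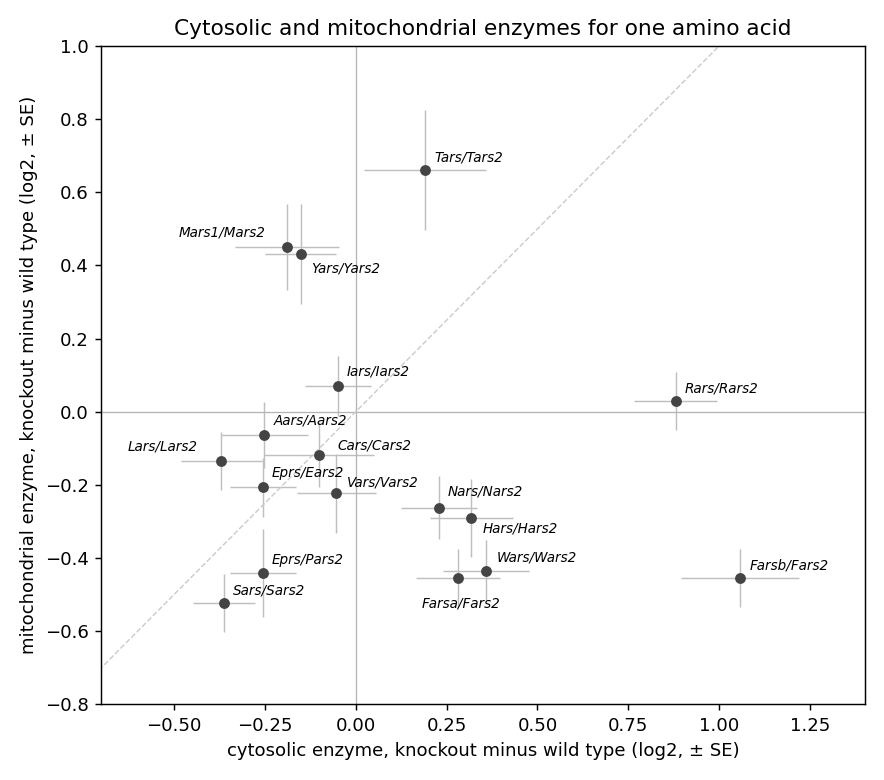
Knockout minus wild type (log2, ± SE of the limma fit, n = 2 lines per genotype) of each cytosolic enzyme against the mitochondrial enzyme for the same amino acid, 1 point per pair, with the line of equal change dashed. Farsb/Fars2 and Rars/Rars2 lie far to the right, and Mars1/Mars2 and Yars/Yars2 lie at the upper left with opposite signs.

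The lines of 1 genotype also differed from each other, and there the cytosolic enzymes nearly all differed in 1 direction. Wild-type line 6 was above wild-type line 5 in 19 of 19 cytosolic genes, against 51.5% of all genes, by a median of 0.20. The largest gaps were those of Tars (0.45), Mars1 (0.36) and Farsb (0.31). Knockout line 4 was above knockout line 2 in 17 of 19, against 47.8% of all genes, by a median of 0.10, with Cars (0.38) and Farsb (0.33) furthest apart and Hars (-0.065) and Wars (-0.0087) as the exceptions. Both orders held at once for 17 of 19 cytosolic genes and 2 of 16 mitochondrial genes, beside 22.6% of all genes.

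Mitochondrial genes had medians of 0.040 between the wild-type lines and -0.042 between the knockout lines. With 1 array per line these gaps have no replicate check and were not tested. For 13 of the 19 cytosolic genes the wild-type lines lay further apart than the knockout lines. Macrophage markers also differed between the lines of a genotype, with a median of -1.60 for wild-type line 6 minus line 5 and 0.65 for knockout line 4 minus line 2, and fibroblast markers had -0.28 and 0.39; their part in the gaps was not tested.

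**Figure D4:**
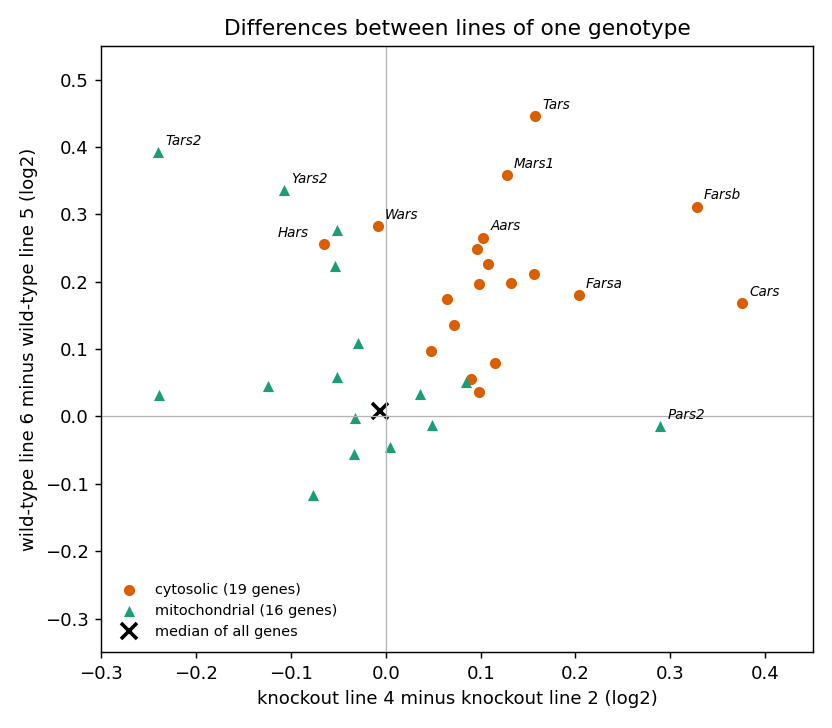
Log2 difference between the knockout lines (horizontal) and between the wild-type lines (vertical) for each synthetase gene, with cytosolic genes as circles, mitochondrial genes as triangles and the median of all genes as a cross; each value rests on 1 array per line. All 19 circles lie above 0 on the vertical axis and 17 lie to the right of 0, whereas the triangles lie on both sides.

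The amino acid response genes, which share Atf4 with the cytosolic synthetases as a known regulator, had many genes lower in the knockout. Of 24 measured genes, 10 fell and 0 rose (limma, with 1 higher at an unadjusted p under 0.05), 41.7% against 12.2% of all genes, with a median of -0.53. The members with the smallest p were Pck2 (-1.87 ± 0.158 SE), the mitochondrial enzyme of phosphoenolpyruvate synthesis, Vldlr (-1.31 ± 0.131 SE), a lipoprotein receptor, Stc2 (-1.84 ± 0.202 SE), a secreted glycoprotein, and Trib3 (-1.51 ± 0.190 SE), a pseudokinase. Asns, the asparagine synthetase that uses the same CARE control, stood at -0.45 in line 2 and -0.20 in line 4 of the knockout, and 0.20 in line 5 and 0.49 in line 6 of the wild type and fell 1.59-fold (-0.67 ± 0.143 SE, limma adjusted p = 0.0457), but with probe sets ending in _at only it was not called (-0.64, limma adjusted p = 0.0637). The Atf4 transcript itself differed by -0.28 ± 0.119 SE (limma adjusted p = 0.206). Between lines of 1 genotype this list had the order of the cytosolic synthetases: 83.3% of its genes were higher in wild-type line 6 than in line 5 and 83.3% higher in knockout line 4 than in line 2, with medians of 0.23 and 0.23. The wild-type order was not particular to it: wild-type line 6 was the higher for 87.8% of the tRNA processing genes, 9 of 10 mitochondrial translation factors, 81.8% of the RNA polymerase III genes and all 3 scaffold genes of the multisynthetase complex. In those lists knockout line 4 was the higher for 38.8%, 3 of 10, 40.9% and 1 of 3. In the remaining lists of that kind, wild-type line 6 was the higher for 51.9% of the amino acid transporters, 57.1% of the cytosolic elongation factors and 57.1% of the other aminoacylation genes, and knockout line 4 for 59.3%, 28.6% and 42.9%.

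Amino acid transporters, which supply the synthetases, gave 6 lower and 0 higher calls among 27 genes (limma, with 5 higher unadjusted), 22.2% against 12.2%. The cationic amino acid transporters Slc7a3 and Slc7a2 fell 4.39-fold (-2.13 ± 0.199 SE) and 2.58-fold (-1.37 ± 0.172 SE), with Slc36a4 (-0.62 ± 0.0866 SE) and the neutral amino acid transporter Slc1a4 (-0.79 ± 0.133 SE) next. Slc7a3 stood at -1.02 in line 2 and -0.89 in line 4 of the knockout, and 0.89 in line 5 and 1.46 in line 6 of the wild type. Both knockout lines were far below the wild-type lines for this gene. The list's median was -0.10.

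Among the partners of the multisynthetase complex, Eef1e1 rose and Aimp1 and Aimp2 did not pass (1 of 3 called, beside 12.2% of all genes). Eef1e1, also called AIMP3, stood at 0.34 in line 2 and 0.30 in line 4 of the knockout, and -0.57 in line 5 and -0.30 in line 6 of the wild type and was 1.70-fold higher (0.76 ± 0.117 SE, limma adjusted p = 0.0254). Aimp1, which lies beside Rars in the complex, differed by 0.13 ± 0.0796 SE and Aimp2 by 0.055 ± 0.105 SE. Of 14 other genes of aminoacylation, tRNA export and editing, 1 fell (7.14% called, beside 12.2% of all genes). This was Tarsl2, a second cytosolic threonine enzyme, 1.53-fold lower (-0.62 ± 0.0826 SE, limma adjusted p = 0.0199). Tarsl2 stood at -0.28 in line 2 and -0.34 in line 4 of the knockout, and 0.28 in line 5 and 0.34 in line 6 of the wild type. Tars, the other threonine enzyme, had lines that overlapped (0.19 ± 0.168 SE). Qrsl1, a subunit of the amidotransferase that makes mitochondrial glutaminyl-tRNA in place of a synthetase, differed by 0.46 ± 0.181 SE without a call, as did Ptrhd1 (-0.35) and Dtd2 (-0.16).

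Of 49 tRNA processing and modification genes, which finish tRNA, limma called 4 higher and 0 lower, beside 5.21% and 6.95% of all genes. The called share was 8.16% against 12.2%, with a median difference of 0.18. At an unadjusted limma p under 0.05, 16 were higher and 2 lower, beside 14.3% and 15.2% of all genes. Pop4, a protein of RNase P, stood at 0.58 in line 2 and 0.56 in line 4 of the knockout, and -0.56 in line 5 and -0.69 in line 6 of the wild type and rose 2.30-fold (1.20 ± 0.0880 SE, limma adjusted p = 0.0106). Trmt6 (0.73 ± 0.0883 SE) and Trmt61a (1.00 ± 0.130 SE), the 2 subunits of the enzyme that methylates adenosine in the T loop of tRNA, and Trub2 (0.77 ± 0.134 SE), a pseudouridine synthase, rose as well.

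For RNA polymerase III, which transcribes tRNA genes, 4 of 22 genes rose and 2 fell, 27.3% against 12.2%, with a median of 0.15. The catalytic subunit Polr3a (0.53 ± 0.0913 SE), the subunit Polr3f (0.50 ± 0.0815 SE) and Ssb (0.66 ± 0.123 SE), the La protein that binds new tRNA ends, rose, and Polr3gl (-0.53 ± 0.104 SE) fell. Bdp1 (0.60) rose and Polr3c (-0.42) fell, and both are named to complete the calls. Of 7 cytosolic elongation genes, 1 was called (14.3%, beside 12.2% of all genes). Eef2k, the kinase that inhibits elongation factor 2, fell (-0.51 ± 0.0839 SE, limma adjusted p = 0.0278, and 0.0574 with the median of its probe sets). Eif5a (0.20 ± 0.0982 SE), Eef2 (-0.14 ± 0.0838 SE) and Eef1d (0.069 ± 0.0846 SE) did not pass. Among 10 mitochondrial translation factors limma called 0, beside 12.2% of all genes, with 1 higher and 0 lower unadjusted (14.3% and 15.2% of all genes). Tufm, the factor that brings charged tRNA to the mitochondrial ribosome, differed by 0.24 ± 0.0821 SE. Gfm1 differed by 0.30 ± 0.120 SE, Mtif2 by 0.25 ± 0.102 SE and Mrrf by -0.14 ± 0.105 SE. Over these lists limma called 29 genes with all 4 lines, 7 when knockout line 4 was dropped, and 0 when any of the others was.

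**Figure D5:**
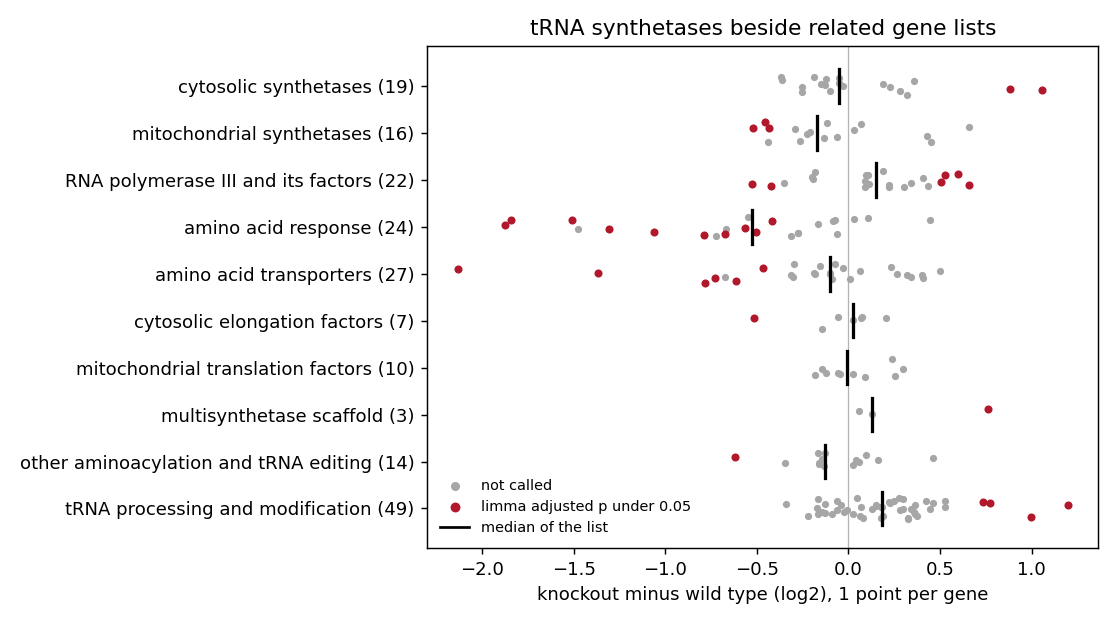
Knockout minus wild type (log2, horizontal) for every measured gene of the synthetase groups and of related lists, 1 point per gene, with called genes in red and the list median as a black bar; numbers of genes are in brackets. The amino acid response has its median at -0.53, while the cytosolic and mitochondrial synthetases sit at -0.054 and -0.17.

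Over single probe sets, limma called 7 of 72 (9.72%), beside 8.32% of all probe sets. Those of Rars and 3 of Farsb were higher (3.92% of all), and 1 each of Fars2, Hars2 and Sars2 lower (4.40%). Of 23 members with several probe sets, 15 had all of them on the same side of 0 and 8 did not (Cars, Cars2, Eprs, Farsa, Iars, Iars2, Lars2 and Qars).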

How the data were processed

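The deposited values are log2 expression per probe set from 4 Affymetrix arrays of biotinylated cRNA, made with Affymetrix Expression Console and RMA per the submitters' processing notes; no version is named in these notes, and the log base was taken from the method. Each probe set had a median of 0 across arrays (within 1e-06), a centring that the labels do not describe and that removes levels; scan dates and detection calls were not used here. The platform annotation gave 34958 probe sets 1 gene, 932 several and 9211 none. After removal of 64 controls, probe sets of 1 gene were averaged per gene (18193 genes). RefSeq (GRCm38.p6) matched 34754 probe sets and changed 0 symbols. The genotype difference came from limma 3.58.1 (lmFit, eBayes; R 4.3.3) with genotype alone in the design (2 residual and 3.04 prior degrees of freedom), with Benjamini-Hochberg adjustment over all genes, after a test on simulated data. A second fit ran over 45037 probe sets. No set test was run. Of the promoter matches, 1 gene's are not reported here. Every synthetase gene was named, and from each related list the 4 genes of smallest p; Asns, Atf4, Bdp1 and Polr3c were added after their values were seen. Members and lists were chosen with earlier results of these data known, among them the fall of Atf4 targets, so that list is not independent evidence. Alternatives were quantile normalisation, centring of arrays, the median of probe sets, probe sets ending in _at, array weights, robust eBayes, each line left out and, chosen after seeing the data, probe sets with a cDNA accession and all settings for the related lists and for single probe sets.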

Additional observations from a re-analysis of the deposited data

How the results depend on the processing

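With 1 line left out, limma called 0 cytosolic and 0 mitochondrial genes and 0 of the 72 probe sets whichever line it was, and 0 to 7 of the related-list genes against 29; at an unadjusted p under 0.05 there were 2 to 7 cytosolic and 4 to 7 mitochondrial genes. Fewer arrays leave 1 residual degree of freedom. The cytosolic median then ran from -0.15 to 0.012 and the mitochondrial one from -0.20 to -0.12. Under the other settings the calls numbered 2 cytosolic and 2 to 4 mitochondrial genes, 25 to 34 related-list genes and 7 to 10 probe sets; probe sets ending in _at covered 18 and 13 genes. The mitochondrial median was -0.11 with the median of the probe sets, and the cause was not tested. Iars changed sign with probe sets ending in _at only (0.0083), as did Qars (0.15; 0.014 with a cDNA accession), because fewer probe sets entered. With a line left out, the sign also changed for Cars (-0.29 to 0.086), Gars (-0.25 to 0.000586), Iars (-0.12 to 0.019), Qars (-0.080 to 0.018), Tars (-0.032 to 0.41) and Vars (-0.15 to 0.046), none of them called. Aimp2 did so too (-0.029 to 0.14). Direction and side of the threshold held in 236 results for single synthetase genes with 4 lines and 113 with 3, and in 233 and 57 for named list genes; 8 of the latter lost a call with 4 lines (Asns, Eef2k, Polr3c and Polr3f, by the choice of probe sets). No paired analysis was possible because no line number occurs in both genotypes. The number of arrays limits the precision.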
